A study of Mus musculus with 4 samples.

Results

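DNA repair genes were compared between lineage-negative bone marrow of Mtg16 null mice and of wild-type mice. The genes were chosen by symbol: Fanconi anaemia genes with the letters b to m, every gene whose symbol begins with Rad, Xrcc, Ercc or Parp followed by a digit, and the Brca, Msh, Mlh and Lig genes of the same pathways. Of 13840 genes with a probe that carries a single gene symbol, 42 met this rule, and each was read from its probe with the highest mean signal. Of the 42, 35 lay among the brighter 50% of probes and were tested among 8444 genes, and 7 were too dim to be tested.

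Wild-type mice were C57BL/6, and null mice lacked Mtg16 and carried the label N4 backcrossed into C57BL/6. All were females of 8 to 12 weeks. Marrow of 4 mice was pooled for each RNA, magnetic columns removed cells with markers of mature lineages, and labelled cRNA was read on 1-colour arrays, with 4 arrays in all. Each of 2 array lots held 1 wild-type and 1 null array. Separate pools for the 2 arrays of a genotype are not stated, so the p-values reflect only how far these samples spread, which can be technical. The probe for Cbfa2t3, the gene that encodes Mtg16, read 80854 and 100256 signal units in wild type and 95519.7 and 118572 in the null arrays. It checks nothing here, because the sources used here do not tell whether it lies inside the deletion, and every direction below rests on the labels.

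Cells mend DNA by several routes. Homologous recombination copies an intact sister strand, end joining ligates broken ends directly, and the Fanconi anaemia pathway unhooks crosslinks between the strands. Nucleotide excision removes bulky lesions, base excision and single-strand break repair replace damaged bases and nicks, and mismatch repair corrects errors of replication. Blood stem and progenitor cells depend on these routes, and inherited defects in the Fanconi anaemia pathway lead to marrow failure.

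In limma, no repair gene of the 35 tested reached an adjusted p under 0.05, the threshold used throughout, as higher or as lower. Over all 8444 genes tested, 0% passed as higher and 0.118% as lower in the null arrays. At an unadjusted p under 0.05 there were 3 repair genes, Xrcc5 and Fancm as lower and Parp3 as higher, which is 5.71% and 2.86% of the 35 against 6.83% and 9.65% of all genes. The median null minus wild-type difference of the repair genes was -0.12 on the log2 scale, against -0.02 for all genes. Of the 35, 25 were negative (71.4%, against 52.1% of all genes). Within lot 1 the median was -0.23, and within lot 2 it was -0.12, against -0.04 and 0.01 for all genes. In bulk RNA, fewer cells of a type and less RNA per cell cannot be told apart.

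**Figure D1:**
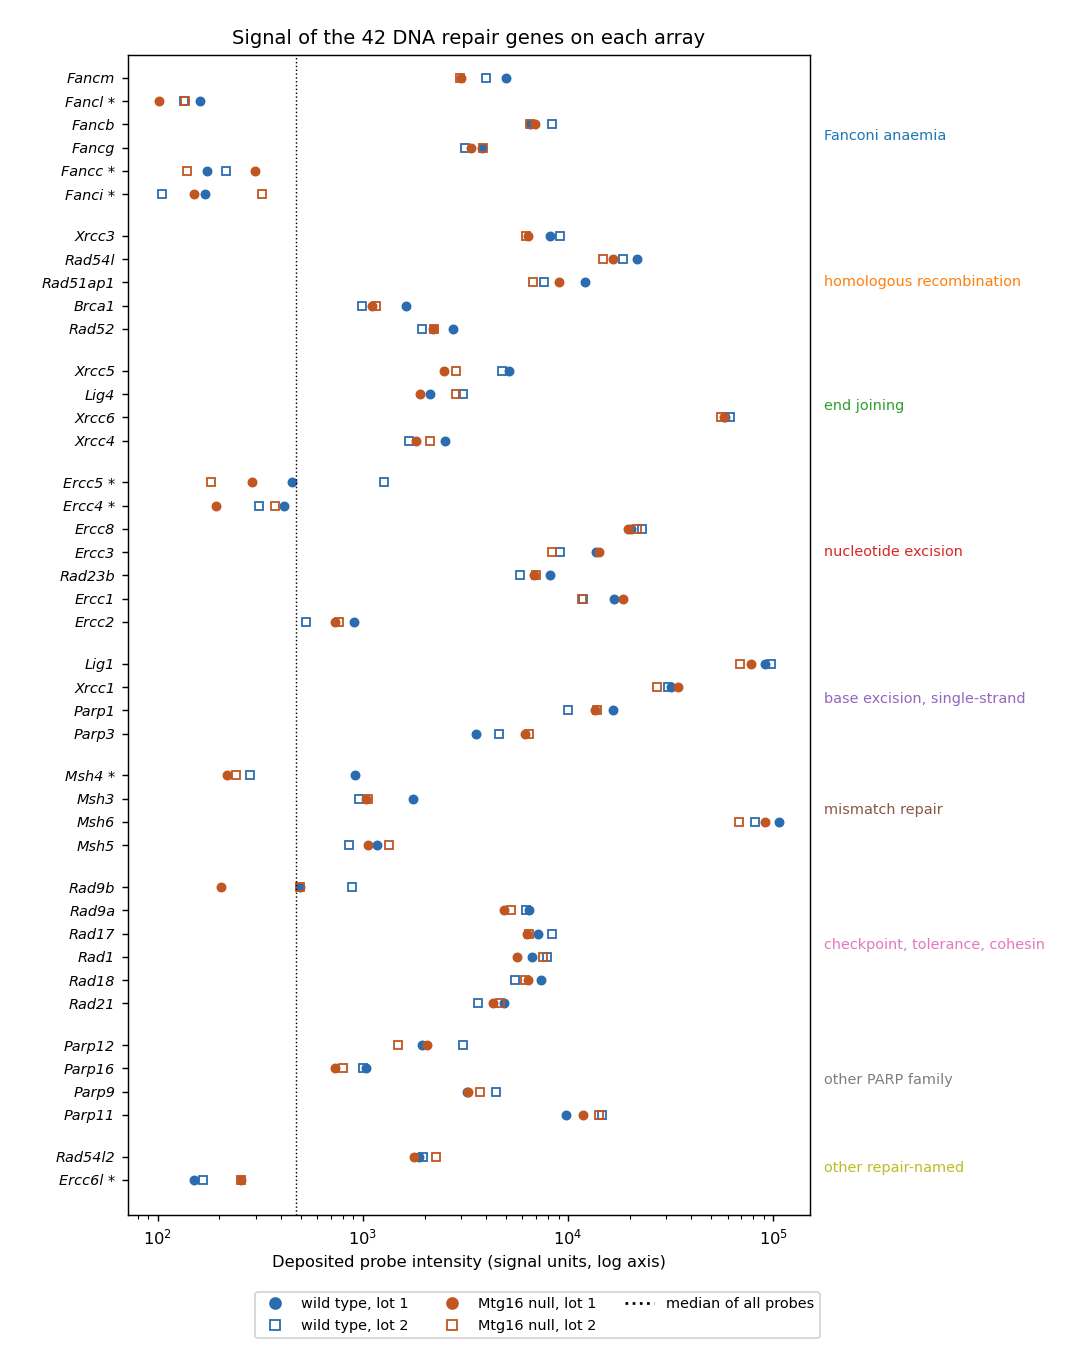
Deposited probe intensity of the 42 repair genes on each of the 4 arrays, on a log axis in signal units, grouped by pathway. Filled circles are lot 1 and open squares lot 2, blue is wild type and orange is null; an asterisk marks a gene too dim to test, and the dotted line is the array median of 470 signal units. For most genes the 4 points lie close together and the genotypes overlap; Xrcc5 has both null arrays left of both wild-type arrays, and Parp3 has them to the right.

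The arrays of the genotypes were apart, meaning that both null arrays lay on the same side of both wild-type arrays, for 11 of the 35 genes. Of these, 10 were lower in null, 28.6% of the genes tested, against 23.2% of all genes. The remaining 1, Parp3, was higher in null, 2.86% against 22.6% of all genes. Among the 10 lower genes, Xrcc6 and Rad9b were apart only narrowly. In both lots, 15 tested repair genes were lower (42.9%, against 36.8% of all genes) and again only Parp3 was higher (2.86%, against 33.6%). The other 19 of the 35 had opposite signs in the 2 lots, against 2480 of all 8444 genes. With a size of at least 0.3 required in each lot, Parp3 alone was higher (2.86%) and 6 of the 35 members were lower. Over all 8444 genes, 1367 (16.2%) were higher and 1164 (13.8%) lower by this rule. The members' differences were also small, with a median size of 0.14 on the log2 scale against 0.28 over all genes. These shares describe the list and were not tested.

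**Figure D2:**
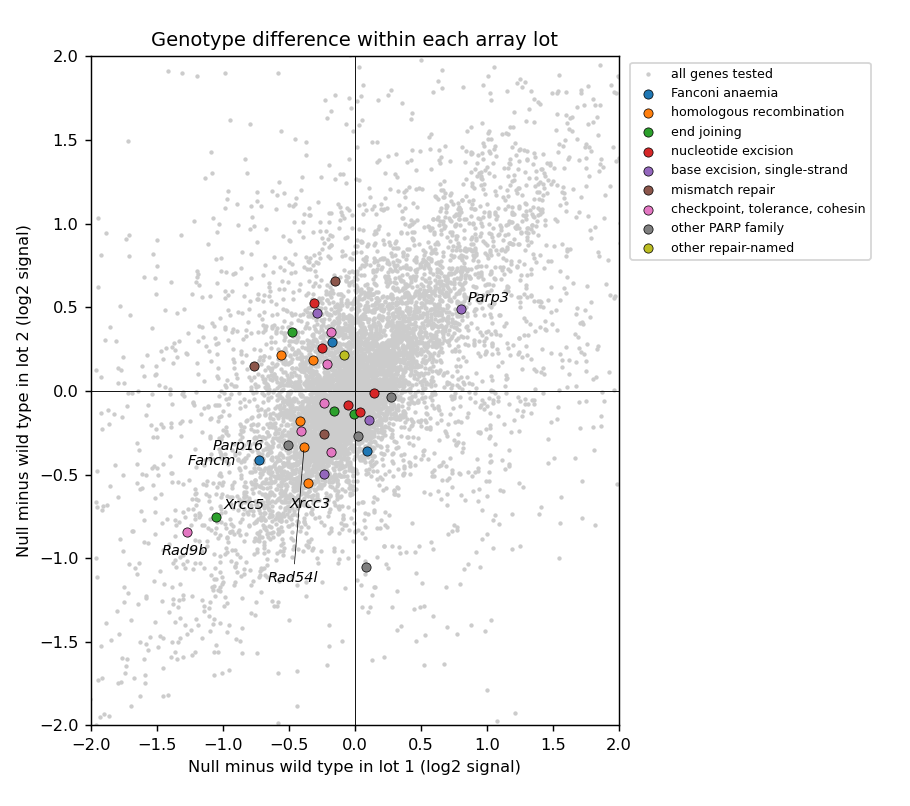
Null minus wild-type difference of log2 signal in lot 1 (horizontal axis) and lot 2 (vertical axis) for the 35 tested repair genes, coloured by pathway, over all 8444 tested genes in grey, of which 274 lie outside the axes. The labelled genes had a difference of at least 0.3 with the same sign in both lots; 6 of them lie in the lower left, Parp3 alone lies in the upper right, and many others lie in the upper left because they were lower in lot 1 and higher in lot 2.

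The end joining gene Xrcc5 had the smallest p of the list. It encodes Ku80, which with Ku70, the product of Xrcc6, forms the ring that binds broken DNA ends and recruits the ligation machinery. Xrcc5 read 5155 and 4769 signal units in wild type and 2486 and 2832 in the null arrays. Both null arrays lay well below both wild-type arrays, 1.87-fold on the log2 mean (difference -0.90, SE 0.18, limma adjusted p = 0.131). Within lot 1 it was -1.05 and within lot 2 -0.75. With only the brightest 25% of probes tested, Xrcc5 passed (adjusted p = 0.0399), 1 of 24 members in that setting, where 2.03% of 4967 genes passed as lower. Over all settings its adjusted p lay between 0.0399 and 0.681.

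Xrcc6 read 58039 and 61304 signal units in wild type and 57916 and 55776 in null. Its groups were apart only narrowly, with a difference of -0.07 (SE 0.17, limma adjusted p = 0.904). The Xrcc5 difference minus the Xrcc6 difference was -1.05 in lot 1 and -0.62 in lot 2, values without a test. The windows before the start of the 2 Ku genes are shown because the subunits act together while their signals differed in this way. They are the 250 bases upstream of the start in RefSeq on GRCm38.p6, Xrcc5 at chr1:72307171-72307420 and Xrcc6 at chr15:82016119-82016368, both on the plus strand, and capitals mark CCAAT or an E2F-type word (TTTGGCGC or TTTCCCGC), searched on both strands.
Xrcc5: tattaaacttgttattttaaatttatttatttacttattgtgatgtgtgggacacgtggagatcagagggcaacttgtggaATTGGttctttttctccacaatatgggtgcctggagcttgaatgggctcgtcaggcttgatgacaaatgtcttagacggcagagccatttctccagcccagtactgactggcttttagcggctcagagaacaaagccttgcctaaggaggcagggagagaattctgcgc
Xrcc6: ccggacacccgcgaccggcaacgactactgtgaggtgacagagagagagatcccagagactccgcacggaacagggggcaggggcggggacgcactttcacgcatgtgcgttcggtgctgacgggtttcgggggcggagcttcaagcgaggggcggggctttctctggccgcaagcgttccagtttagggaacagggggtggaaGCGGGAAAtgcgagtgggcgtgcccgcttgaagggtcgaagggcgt
Xrcc5 held 1 CCAAT match and no E2F-type match, and Xrcc6 held 1 E2F-type match and no CCAAT match. The words do not overlap each other in these windows, and a match is a description of letters, not of a binding site.

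The ligation step of end joining is carried out by the ligase encoded by Lig4 with its scaffold encoded by Xrcc4. Lig4 read 2128 and 3078 signal units in wild type and 1911 and 2833 in null, so each null array lay slightly below the wild-type array of its own lot, while the groups overlapped. Its difference was -0.14 (limma adjusted p = 0.897). Xrcc4 read 2524 and 1673 in wild type and 1811 and 2131 in null, with differences of -0.48 in lot 1 and 0.35 in lot 2. The median of the 4 end joining genes was -0.10.

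**Figure D3:**
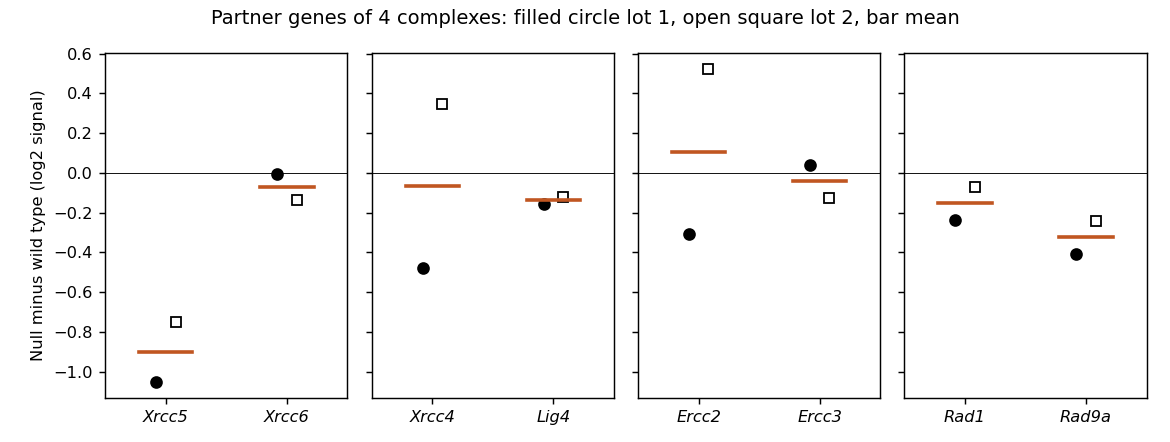
Null minus wild-type difference of log2 signal for both genes of 4 partner pairs, with a filled circle for lot 1, an open square for lot 2 and a bar for the mean. Xrcc5 lies at -1.05 and -0.75 while its partner Xrcc6 lies near 0; Xrcc4 and Ercc2 have opposite signs in the 2 lots; Rad1 and Rad9a lie below 0 in both.

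Homologous recombination genes all had a negative difference, with a median of -0.30 over 5 tested members, and 3 of the 5 were lower in both lots. Xrcc3, which helps resolve recombination intermediates, read 8147 and 9110.3 signal units in wild type and 6364 and 6220.0 in null. The groups were apart, with a difference of -0.45 (SE 0.17, limma adjusted p = 0.329; -0.36 in lot 1 and -0.55 in lot 2). Rad54l, a motor protein gene of strand exchange, read 21749 and 18593 in wild type and 16658 and 14754 in null. Its groups were apart as well, with a difference of -0.36 (SE 0.19, limma adjusted p = 0.471). Rad51ap1, an accessory gene of strand exchange, read 12112 and 7648 in wild type and 9084 and 6756 in null, lower in null within each lot (differences of -0.42 and -0.18) but overlapping across lots.

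Brca1, which directs broken ends to recombination, was not separated by genotype, at 1631 and 996 signal units in wild type and 1108 and 1158 in null. Rad52, an annealing protein gene, read 2757 and 1951 in wild type and 2209 and 2221 in null. Both were lower in null in lot 1 and higher in lot 2, and in both it was wild-type array 1 that stood above the other 3 arrays. Without that array the median of the 5 recombination members was 0.03. It was -0.47 without wild-type array 2, -0.45 without null array 1 and -0.20 without null array 2. Leaving out wild-type array 1 sets a lot 2 array against null arrays of both lots, so it mixes lot with genotype. Within lot 2, which does not use wild-type array 1, the median of the 5 was -0.18.

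Recombination genes outside the symbol rule, from a list of textbook members, had a median of -0.42 over 15 tested genes. None passed limma in either direction, 2 had an unadjusted p under 0.05 as lower, 11 of 15 were lower in both lots and none was higher in both. Wrn, the Werner helicase gene, read 9649 and 7870.0 signal units in wild type and 4253 and 4227 in null, a difference of -1.04 (limma adjusted p = 0.123, and 0.0336 among the brightest 25% of probes). Mre11a, the nuclease gene of the complex that first senses broken ends, read 8952 and 8080.4 in wild type and 5164 and 4941 in null (difference -0.75, limma adjusted p = 0.164). Nbn, which encodes its partner NBS1 and was singled out after its values were seen, had a difference of -0.62. Members and listed genes together numbered 20, of which 14 (70%) were lower in both lots against 36.8% of all genes, and 11 (55%) were apart as lower against 23.2%. No other pathway was pooled in this way, and the high share is not particular to recombination. In end joining, 3 of 4 members were lower in both lots and none was higher. Of the 6 end joining genes outside the rule, 4 were lower and 2 higher in both lots.

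Markers of S phase were lower as well. Recombination proteins are made mainly in cells that replicate DNA, and of 21 tested S phase markers 17 were lower in both lots and none was higher in both, with a median of -0.35. Their summed signal was 1327730 to 1491650 units in wild type and 1045230 to 1118250 in null. None of the S phase markers reached the adjusted threshold in limma, and 6 had an unadjusted p under 0.05, all as lower. Erythroid markers were lower in both lots for 18 of 18 genes and late neutrophil markers for 11 of 12, with medians of -1.22 and -3.53, while early granulocyte markers had a median of 1.78. In limma, 7 of the 12 late neutrophil markers passed as lower, and no erythroid or early granulocyte marker passed. The summed signal of the 18 erythroid markers was 2332560 to 3282460 units in wild type and 1416230 to 1621220 in null. The 12 late neutrophil markers summed to 1371260 to 1486750 units in wild type and 149854 to 159863 in null, and the 9 early granulocyte markers to 1860770 to 1868030 and 3698400 to 4326050 units. Markers of G2 and M phase, 17 genes, had a median of -0.13 (-0.24 in lot 1 and 0.004 in lot 2), with 8 lower and 4 higher in both lots and none at an unadjusted p under 0.05. They summed to 2653220 to 2696210 units in wild type and 2607370 to 2822370 in null. Medians were 0.78 for 8 megakaryocyte, 1.20 for 7 B and lymphoid precursor, 1.07 for 6 T and natural killer and 0.56 for 5 stroma and endothelium markers, none of which passed limma. The part of these differences in the repair gene values was not tested.

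Fanconi anaemia genes were represented by 3 tested members, with a median of -0.13. Fancm, the motor protein gene that anchors the core complex at stalled forks, read 4977 and 3970.4 signal units in wild type and 3015 and 2984 in null. The groups were apart, 1.48-fold on the log2 mean (difference -0.57, SE 0.20, limma adjusted p = 0.294). Fancm was the only member with more than 1 probe, and its other 2 probes, which the rule did not use, gave -0.67 and -0.56. Those probes read 1763 and 2743 units in wild type against 1151 and 1649 in null, and 601 and 539 against 371 and 402. All 3 probes were lower in null in both lots, with within-lot differences between -0.73 and -0.41, and they share the same RNA.

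The core complex genes Fancb and Fancg did not follow Fancm. Fancb read 6497 and 8373 signal units in wild type and 6929 and 6524 in null, a difference of -0.13, positive in lot 1. Fancg read 3817 and 3148 in wild type and 3383 and 3853 in null, a difference of 0.06. Of all 83 tested repair genes outside the rule none passed limma, and 1 as higher and 3 as lower had an unadjusted p under 0.05. Among the 8 for crosslink repair, 4 were lower and 1 higher in both lots, and the median was -0.16. Fan1, a crosslink nuclease gene, read 590 and 835 units in wild type and 206 and 504 in null (difference -1.12, limma adjusted p = 0.402). Dclre1b, the Apollo nuclease gene, read 418 and 977 in wild type and 990 and 1219 in null (0.78). Female mice carry no Y chromosome, and the probes of Y-linked genes read 94.5 to 310 units, so the lower Fan1 value is within the range of background.

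Nucleotide excision genes differed little, with all 5 tested members between -0.07 and 0.11 and a median of 0.002. Ercc8, which encodes the CSA protein that recognises stalled RNA polymerase, read 20213 and 23074 signal units in wild type and 19536 and 21721 in null. Ercc3, a helicase gene of the TFIIH complex, read 13754 and 9155 in wild type and 14138 and 8395 in null. Ercc1, a subunit gene of the nuclease that cuts on the 5′ side of a lesion, read 16727 and 11805 in wild type and 18459 and 11724 in null. For Ercc3 and Ercc1 the 2 arrays of a lot lay together and the lots lay far apart, while the genotypes did not separate.

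Ercc2, the second TFIIH helicase gene, went from lower in null in lot 1 (-0.31) to higher in lot 2 (0.52), at 909 and 531 units in wild type and 734 and 765 in null. Rad23b, which stabilises the lesion sensor XPC, had -0.25 and 0.26 in the 2 lots. Of 14 further excision genes outside the rule, 6 were lower and 3 higher in both lots, and the median was -0.11. Gtf2h3 and Cdk7, both of TFIIH, had differences of -0.58 and -0.51, with limma adjusted p = 0.337 and 0.311. Gtf2h4, another TFIIH subunit gene, had a difference of -4.12 that came from a single array: it read 1158811 units on wild-type array 2 and 4945, 3862 and 4877 on the other 3 arrays.

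Base excision and single-strand break repair held Parp3, the only one of the 35 tested members that was higher in both lots. This poly(ADP-ribose) polymerase family gene of the DNA break response read 3549 and 4619 signal units in wild type and 6193 and 6486 in null. Both null arrays lay above both wild-type arrays, 1.57-fold on the log2 mean (difference 0.65, SE 0.21, limma adjusted p = 0.270; 0.80 in lot 1 and 0.49 in lot 2). Parp1, which encodes the main poly(ADP-ribose) polymerase of nicked DNA, was not separated, at 16587 and 10056 in wild type and 13623 and 13877 in null (0.09). Xrcc1, the scaffold gene of single-strand break repair, had a difference of -0.03.

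Lig1, the ligase gene that also joins Okazaki fragments in replication, went the other way from Parp3. It read 91295 and 97713 signal units in wild type and 77761 and 69179 in null, apart between the genotypes, with a difference of -0.36 (SE 0.18, limma adjusted p = 0.432). The class median was 0.03. Of 15 base excision genes outside the rule, 6 were lower and 2 higher in both lots, and the median was -0.02. The 2 higher ones were the DNA glycosylase genes Nthl1 (0.37) and Neil3 (0.39).

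Mismatch repair was read from 3 tested members, with a median of -0.25 that was -0.23 in lot 1 and 0.15 in lot 2. Msh6, whose product recognises single mismatches, read 107012 and 81921 signal units in wild type and 91003 and 68479 in null. Each null array lay below the wild-type array of its lot by a similar amount, with differences of -0.23 and -0.26, while the groups overlapped because lot 2 was lower than lot 1 in both genotypes (limma adjusted p = 0.733, and 0.319 in the fit blocked by lot). Msh3, whose product recognises small loops, read 1763 and 957 in wild type and 1036 and 1060 in null, with wild-type array 1 above the other 3. Msh5, known from meiotic recombination, had -0.15 and 0.66 in the 2 lots. Of 6 mismatch repair genes outside the rule, 3 were lower and none was higher in both lots, with a median of -0.21. Pms1, a MutL homologue gene, had a difference of -0.44 (limma adjusted p = 0.386).

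Of 6 checkpoint, damage tolerance and cohesin genes, 4 were lower and none was higher in both lots, and none had an unadjusted p under 0.05 in limma. Rad9a and Rad1 encode subunits of the ring-shaped clamp that is loaded at damaged DNA, and Rad17 encodes part of its loader. Rad9a read 6485 and 6261 signal units in wild type and 4896 and 5296 in null, and its groups were apart (difference -0.32, SE 0.17, limma adjusted p = 0.463). Rad17 read 7177 and 8370.3 in wild type and 6323 and 6492 in null, also apart (-0.27, limma adjusted p = 0.565). Rad1 read 6663 and 7915 in wild type and 5659 and 7540.3 in null, lower in null in each lot but overlapping (-0.15, limma adjusted p = 0.834), and its difference was 0.054 without null array 1.

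Rad9b, a second form of RAD9, had the most negative difference of all tested members, -1.06 (SE 0.56, limma adjusted p = 0.463). It read 493.4 and 882 signal units in wild type and 204 and 492.6 in null. Its groups therefore counted as apart but all but touched, and null array 1 read no more than the Y-linked probes do. Its difference was -1.69 without null array 2 and -0.42 without null array 1, so its size is not resolved. Rad18, a ubiquitin ligase gene of damage tolerance, had a difference of -0.03, and Rad21, a cohesin subunit gene, one of 0.09. The class median was -0.21 over 6 genes.

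Among 19 damage signalling and tolerance genes outside the rule, 9 were lower and 2 higher in both lots, and the median was -0.17. Atm, the kinase gene that signals double-strand breaks, read 21514 and 22581 signal units in wild type and 16904 and 15987 in null (difference -0.42, limma adjusted p = 0.344). Clspn, the claspin gene of replication checkpoint signalling, had -0.41. Atrip, the partner gene of the ATR kinase, had a difference of 2.41 that came from null array 1, at 40729.6 units against 1660, 2180.1 and 2502 on the other 3. Of 6 end joining genes outside the rule, Aplf, an adaptor gene that binds Ku, read 27961 and 31023 units in wild type and 14611 and 15335 in null. It was apart by genotype (difference -0.98, limma adjusted p = 0.115) and passed among the brightest 25% of probes (adjusted p = 0.0301) and with a variance trend (0.0345), a setting where 1.35% of 8444 genes passed as lower. Poll, a gap-filling polymerase gene, was higher, at 392 and 542 in wild type and 763 and 763 in null (0.73, limma adjusted p = 0.262).

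**Figure D4:**
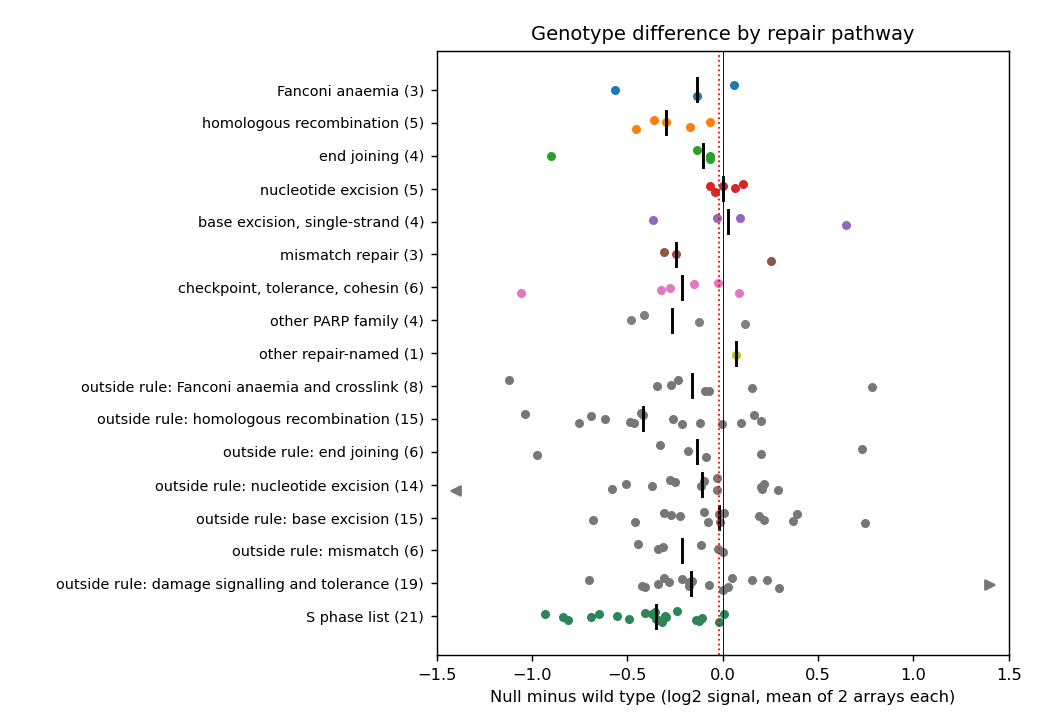
Null minus wild-type difference of log2 signal for each tested gene by repair pathway, with the members in the upper 9 lines, listed repair genes outside the symbol rule below them and S phase markers in the last line; the number of genes is in brackets, and triangles mark genes beyond the plotted range. Black bars are medians and the red dotted line is the median of all genes, -0.02. Nucleotide excision members sit at 0, and the recombination genes outside the rule have a median of -0.42.

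The remaining PARP genes, most of which add single ADP-ribose units to proteins, gave 4 tested members with a median of -0.27. Parp16, of the endoplasmic reticulum, read 1039.6 and 1006 signal units in wild type and 733 and 804 in null, apart by genotype (difference -0.41, SE 0.17, limma adjusted p = 0.361). Parp12, an interferon-induced gene, read 1942 and 3063 in wild type and 2063 and 1477 in null, with 0.09 in lot 1 and -1.05 in lot 2. Parp9, also induced by interferon, had -0.12, and Parp11 had 0.12. Of 15 interferon response markers, 11 were lower and 2 higher in both lots with a median of -0.64. Oasl1 alone of them passed limma, as lower (difference -3.13, limma adjusted p = 0.0405). The markers' summed signal was 129704 to 135977 units in wild type and 122229 to 130775 in null. Ifi47, the brightest of them, was higher, at 50034 and 50519 units in wild type and 76199 and 68125 in null. Of the 15 differences, 13 were negative and 2 positive. The part of these markers in the values of Parp9 and Parp12 was not tested.

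Of the 7 genes with a difference of at least 0.3 in both lots, Xrcc3, Parp3 and Rad9b start head to head with a tested neighbour, so that a single stretch of DNA lies before both genes of a pair. The windows upstream of Xrcc3 and Parp3 are shown for that reason, both on the minus strand of GRCm38.p6 in RefSeq, Xrcc3 at chr12:111813880-111814129 and Parp3 at chr9:106476950-106477199, with capitals marking CCAAT matches on either strand.
Xrcc3: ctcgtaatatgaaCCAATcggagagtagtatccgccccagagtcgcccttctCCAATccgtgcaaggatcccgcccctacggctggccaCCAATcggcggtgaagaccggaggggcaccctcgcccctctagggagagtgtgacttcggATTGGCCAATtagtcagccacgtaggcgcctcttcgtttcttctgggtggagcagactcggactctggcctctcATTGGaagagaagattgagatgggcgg
Parp3: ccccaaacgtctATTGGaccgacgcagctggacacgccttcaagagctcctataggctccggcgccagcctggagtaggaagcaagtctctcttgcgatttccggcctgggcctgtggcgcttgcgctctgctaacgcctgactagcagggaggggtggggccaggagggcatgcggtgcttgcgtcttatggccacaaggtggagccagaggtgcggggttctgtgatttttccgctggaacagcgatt
Xrcc3 held 6 CCAAT matches, a number reached by 0.0578% of the 32851 windows, and Parp3 held 1. Neither held an E2F-type match. Zfyve21, whose start lies 291 bases from that of Xrcc3, read 9480.4 and 8911 signal units in wild type and 6427 and 5775 in null. Both genes of the pair were apart as lower, with differences of -0.59 for Zfyve21 (limma adjusted p = 0.239) and -0.45 for Xrcc3. Rrp9, whose start lies 360 bases from that of Parp3, read 14104 and 8132 in wild type and 8753 and 7983 in null, a difference of -0.36 opposite in sign to that of Parp3. The window of Rad9b is not shown. Vps29, whose start lies 123 bases from that of Rad9b, read 63714 and 56174 in wild type and 60423 and 55143 in null. Its groups overlapped, with a difference of -0.05 (limma adjusted p = 0.933) beside -1.06 for Rad9b.

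RefSeq windows were found for 36 of the 42 members. These 36 include members too dim to be tested, so they are not a like set to the tested genes below. A CCAAT match was present for 19 of the 36 (52.8%), among them the untested Ercc4, Ercc5 and Fancc. The share was 41.0% of the 6958 tested genes with a window and 33.8% of all windows. An E2F-type match was present for 4 of the 36 (11.1%), against 2.96% of those tested genes and 1.3% of all windows. The 4 were Fancg, Msh3, Msh5 and Xrcc6, with differences of 0.06, -0.31, 0.25 and -0.07. Within 1000 bases upstream, 17 members had a neighbour starting on the other strand, and for 9 members, in 10 pairs, both genes were tested. In 7 of the 10 pairs both differences had the same sign. No share over other head-to-head pairs stands beside this count, which was not tested. Of the tested members 71.4% had a negative difference, and of all genes 52.1%. Desi1 beside Xrcc6 was lower in both lots at -0.38 while Xrcc6 was at -0.07, and Brix1 beside Rad1 had -0.17 beside -0.15.

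The 7 members too dim to be tested were Fancc, Fanci, Fancl, Ercc4, Ercc5, Ercc6l and Msh4. Fancc, Fanci and Fancl, of the Fanconi anaemia core and its substrate complex, read between 101 and 323 signal units on all 4 arrays, about the range of the Y-linked probes. Ercc4, the catalytic partner of Ercc1, read 412 and 312 in wild type and 193 and 372 in null. Ercc5, the nuclease gene that cuts on the 3′ side, read 452 and 1270 in wild type and 288 and 181 in null, and Msh4, a meiotic gene, read 918 and 281 in wild type and 219 and 241 in null. In both, a single wild-type array stood above the other 3. Ercc6l, a mitotic helicase gene, read 151 and 167 in wild type and 255 and 254 in null, within the background range, and higher in null in both lots (0.75 and 0.60). The last tested member, Rad54l2, a relative of Rad54l that is not a core repair gene, had a difference of 0.07.

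Array lots differed too. For 21 of the 35 tested members the lot difference exceeded the genotype difference in size, against 48.2% of all genes. The median size of the lot difference was 0.42 within wild type and 0.17 within null, against 0.34 and 0.24 over all genes. Lot 2 was below lot 1 in both genotypes for 8 of the 35 members, against 37.5% of all genes. It was above lot 1 in both genotypes for 9 of the 35, against 34.2% of all genes. In the fit blocked by lot, none of the 35 passed limma (smallest adjusted p = 0.124, with 0% of all genes past the test), and 5 had an unadjusted p under 0.05, Xrcc5, Fancm, Xrcc3 and Rad9b as lower and Parp3 as higher, against 24.3% of all genes.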

How the data were processed

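Values were deposited probe intensity on a linear scale for 33012 probes, from 28.2 to 3093946 signal units. The values show that the authors had quantile normalized them: sorted values of the 4 arrays differ by at most 0.286%, and all medians are 470. For scanner software, background correction and detection calls, nothing is stated in the sources used here. Per the labels' protocols, RNA with a RIN of at least 7 was labelled with digoxigenin and hybridised to Applied Biosystems arrays. The number of arrays limits the precision.

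Of the probes, 14411 had 1 gene symbol, 247 several and 18354 none. Signals under the 1st percentile (75.8 units) were raised to it and log2 was taken. The probe with the highest mean signal stood for a gene, and genes with that probe among the brighter 50% by mean log2 signal were tested, 8444 in all. Differences are null minus wild type, fitted with limma 3.58.1 in R 4.3.3 (lmFit, eBayes, genotype only), with Benjamini-Hochberg adjustment over all 8444 genes. The fit was tested on simulated data. Folds are 2 to the power of the log2 difference.

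Lots pair the arrays, since the series text states that a replicate number is a lot: the lot difference in wild type correlated with that in null at r = 0.50 over genes. Alternatives were the lot block, 2 filters, 2 floors, 2 scalings, a variance trend, 2 probe rules, each array left out and each lot alone. Genes were named by size in both lots (at least 0.3, up to 3 per direction and pathway), as partners or as brightest of a class; values of other members are given for completeness. Members and lists were chosen with earlier results of these data known. Python 3.11.15 with matplotlib 3.10.9 made the figures and promoter searches.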

Additional observations from a re-analysis of the deposited data

How the results depend on the processing

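With 2 arrays a group, single values are imprecise, and genes near the 94.5 to 310 units of Y-linked probes are not resolved. The counts of repair genes past limma stayed at 0 in all settings except the brightest 25% of probes, where 1 passed as lower (Xrcc5). There 2 repair genes outside the rule passed, and 1 with a variance trend. Over all 8444 genes the count of 10 became 291 of 4967 with the brightest 25%, 295 with a variance trend, 11 with cyclic loess, and 0 with the replicate block (lot), without the filter and without each array in turn (an array alone in its group is assumed to vary like the other group). The lot block changed no call among repair genes, with 0 higher and 0 lower. Without the filter, 2 repair genes were apart as higher, the nucleotide excision median was -0.043, that of the 2 other repair-named genes 0.37 and that of genes outside the rule -0.12 (-0.16 in the report's setting). With the brightest 25%, medians were -0.15 for checkpoint genes, -0.49 for end joining and -0.0037 for other PARP genes.

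Within lot 1 the median was -0.23 over all members, -0.32 for end joining, -0.049 for nucleotide excision and 0.055 for other PARP genes, and 12 of the 35 tested members had the other sign, among those named by rule Fancb (0.093), Rad54l2 (-0.082), Ercc2 (-0.31) and Ercc3 (0.040). Within lot 2 it was -0.16 for checkpoint, -0.36 for Fanconi anaemia and 0.15 for mismatch genes, and 7 of 35 had the other sign, among those named by rule Parp11 (-0.039) and Xrcc4 (0.35).

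With an array left out, the member median ran from -0.24 to -0.053 and that of genes outside the rule from -0.20 to -0.088. Class medians ran from -0.32 to -0.080 (Fanconi anaemia), -0.47 to 0.035 (recombination), -0.30 to -0.022 (end joining), -0.24 to 0.25 (nucleotide excision), -0.17 to 0.23 (base excision), -0.44 to 0.13 (mismatch), -0.33 to -0.15 (checkpoint), -0.38 to -0.018 (other PARP), -0.11 to 0.25 (other). Counts apart ran from 4 to 12 as higher and 14 to 21 as lower, since a lone array separates more easily. Pair differences ran from -0.95 to -0.71 (Xrcc5 minus Xrcc6), -0.49 to 0.64 (Xrcc4 minus Lig4), -0.25 to 0.56 (Ercc2 minus Ercc3), 0.020 to 0.32 (Rad1 minus Rad9a). Leaving out at least 1 of the arrays turned the sign of 21 of the 35, among the genes named by rule Parp11 (-0.17 to 0.40), Xrcc4 (-0.36 to 0.23), Ercc3 (-0.42 to 0.33), Ercc8 (-0.16 to 0.027), Fancb (-0.32 to 0.050), Ercc2 (-0.28 to 0.50), Lig4 (-0.42 to 0.15), Rad1 (-0.36 to 0.054), Rad54l2 (-0.11 to 0.25). The cause was not tested.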
